A study of Sus scrofa with 12 samples.

Results

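The miRNAs described here are those whose names place them in the miR-10, miR-196 and miR-615 families, which are encoded inside the HOX gene clusters. They were found by name among 1452 listed miRNAs, and 11 entries matched. Of these, 7 carry a pig name and 4 carry a name without a species. The libraries were made from testes of boars of a Chinese native breed, Hezuo (HZ), and of a commercial breed, Landrace (LC). HZ boars were sampled at 30 days (Ha) or 120 days (Hb), and LC boars at 30 days (La) or 120 days (Lb). Each group has 3 libraries, and the labels name no treatment. The methods of the study speak of RNA extracted from pooled samples, so it is not certain that a library stands for 1 boar, and the p-values measure the spread between libraries. The age comparisons ask how testicular miRNAs differ between 30 and 120 days, by which age HZ boars are taken as sexually mature, and the breed comparisons ask how the early-maturing HZ differs from LC at the same age.

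HOX genes code for transcription factors that give cells along the body axis their positional identity, and they are kept in clusters in which the order of the genes follows the order of their use. The miR-10 genes lie in the middle of the HOXB and HOXD clusters, the miR-196 genes lie among the posterior genes of the HOXA, HOXB and HOXC clusters, and miR-615 lies inside HOXC5. Some of these miRNAs act on HOX transcripts themselves, the best known case being the cleavage of HOXB8 mRNA directed by miR-196.

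In the RefSeq annotation of Sscrofa11.1, MIR10B lies on chromosome 15 from 81951644 to 81951723, between HOXD8 and HOXD3. MIR10A lies on chromosome 12 from 24833644 to 24833723, between HOXB3 and HOXB5. The mature sequence ssc-miR-196a has 2 annotated genes, MIR196A-1 on chromosome 12 from 24886316 to 24886395, between HOXB8 and HOXB13, and MIR196A-2 on chromosome 5 from 19204442 to 19204548, between HOXC10 and HOXC9. Tags of ssc-miR-196a therefore cannot be assigned to the HOXB or the HOXC cluster. MIR615 lies on chromosome 5 from 19246763 to 19246850, within the bounds of HOXC5. These are the nearest genes with a HOX symbol on each side, and the annotation used gives bounds of genes and not their exons.

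The mature sequences of the pig-named entries that carried most of the signal are shown as the authors listed them, with T for U, and with the seed (bases 2 to 8, which pair with target transcripts) in capitals. They are shown because members of a family differ by a single base, which limits how far their tags can be told apart.
ssc-miR-10b: tACCCTGTagaaccgaatttgt
ssc-miR-10a-5p: tACCCTGTagatccgaatttgt
ssc-miR-196a: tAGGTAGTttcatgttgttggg
ssc-miR-196b-5p: tAGGTAGTttcctgttgttggg
ssc-miR-615: tCCGAGCCtgggtctccctct

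Both miR-10 guides share the seed ACCCTGT and differ by A12T, counted from the 5′ end of ssc-miR-10b. The miR-196 sequences share the seed AGGTAGT and differ by A12C, counted from the 5′ end of ssc-miR-196a. The seed ACCCTGT occurs in 1 other listed entry, miR-57-x, and AGGTAGT occurs in no other.

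The next sequences are the 4 listed without a species and the opposite arm ssc-miR-10a-3p, shown because they are length or start variants of the ones above or relatives of such an arm.
miR-10-x: aCCCTGTAgaaccgaatttgtga
miR-10-z: aCCCTGTAgaaccgatcttgt
miR-10-y: aCAGATTCgattctaggggaat
ssc-miR-10a-3p: cAAATTCGtatctaggggaat
miR-615-y: tCCGAGCCtgggtctccctctta

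Bases 1 to 21 of miR-10-x equal bases 2 to 22 of ssc-miR-10b, so it starts 1 base later and has the shifted seed CCCTGTA. The entry miR-10-z has the same late start and seed, and 2 substitutions from ssc-miR-10b, A17T and T18C. The entry miR-615-y is ssc-miR-615 with 2 further bases at its 3′ end, so both record the same miRNA. The entry miR-10-y aligns with ssc-miR-10a-3p from its second base with 3 substitutions (G4A, A10T and T11A, counted in miR-10-y). This alignment does not assign miR-10-y to the HOXB hairpin, and neither miR-10-y nor miR-10-z was placed in the genome here.

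Levels are given as the TPM deposited by the authors, that is the tags of a miRNA per 1000000 tags of a library, where miRNAs without a tag are entered as 0.01. Between 6520197 and 16874633 counts per library fell on listed miRNAs, and 3 counts corresponded to 0.158 to 0.404 TPM. A miRNA was called changed when its p-value in edgeR's quasi-likelihood test, adjusted over every miRNA tested in that comparison, was under 0.05. Whether groups overlapped was judged on TPM, without the TMM scaling used in that test. Replicate libraries differed by more than counting error (chi-square over its degrees of freedom, 49.45 to 1178, with the largest between Hb replicates 1 and 2), and Hb replicate 2 had the lowest TMM scaling factor, 0.6942, against 0.9096 to 1.195 in the others. The tissue label was checked with miRNAs known from its cells. The gonad miRNA miR-202 summed to 9608 to 24405 TPM over its 5 entries in the 12 libraries. The miR-34b, miR-34c and miR-449 entries of meiotic and haploid germ cells (4 entries) summed to 16.6 to 76.9 TPM at 30 days. At 120 days they summed to 4303, 2580 and 13177 TPM in Hb replicates 1, 2 and 3, and to 11279 to 13895 TPM in Lb. The part of this spread in the comparisons with Hb was not tested.

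The levels of the 11 entries spanned several orders of magnitude. Together they took 4.06 to 6.55% of the counts on listed miRNAs in a library, and nearly all of this was ssc-miR-10b, with 3.94 to 6.26%. By TPM, ssc-miR-10b ranked between 3 and 8 among all listed miRNAs in each library. All of the sequences are 21 to 23 nt long, so their TPM levels can be set beside each other with little effect of length. The order of mean TPM over all groups was ssc-miR-10b, ssc-miR-10a-5p, miR-10-x, miR-10-y and then the miR-196, miR-615, miR-10-z and ssc-miR-10a-3p entries, which lay below 25 TPM in every library. In Hb and Lb, ssc-miR-10a-5p and miR-10-x overlapped, and among the entries below 25 TPM the order differed between groups. Of the 11 entries, 8 had a count in every library. The exception with almost no signal was ssc-miR-196b-3p, the opposite arm of miR-196b, with 0 to 3 counts per library and 9 counts in all, at or under the floor of 3 counts in each library.

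**Figure D1:**
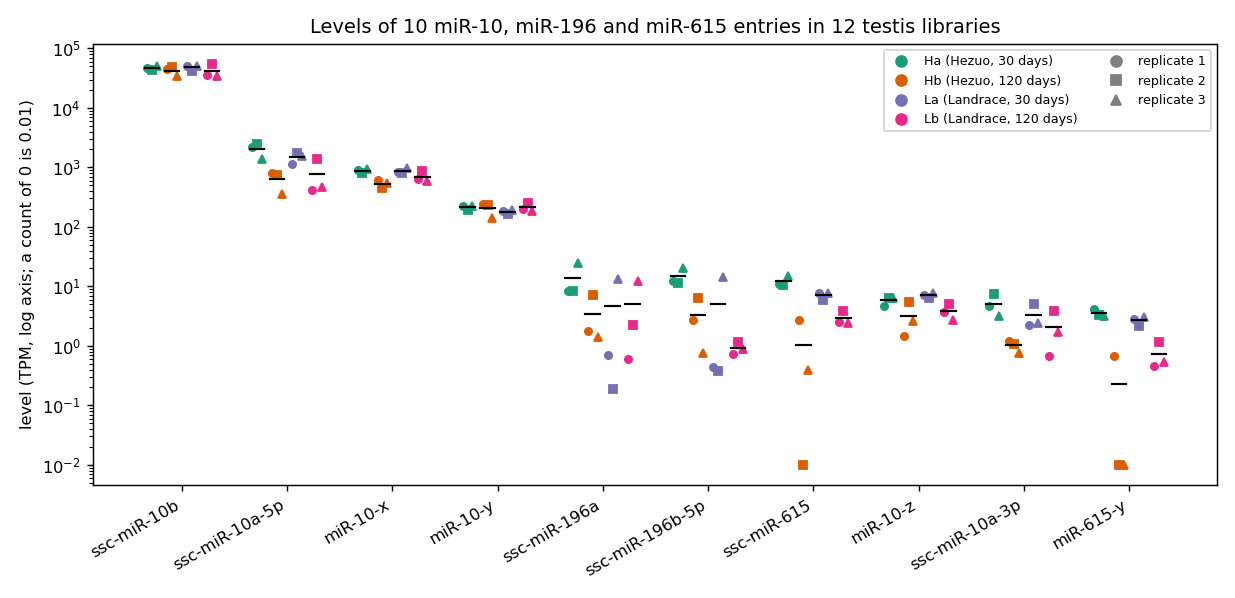
Level (TPM, log axis) of 10 entries in the 12 libraries, coloured by group, with the marker shape giving the replicate and a black line the group mean. The ssc-miR-10b points stay between 34249 and 54643 TPM in all groups, whereas the ssc-miR-196a points run from 0.19 to 13.2 TPM in La and from 0.596 to 12.3 TPM in Lb.

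With age, 5 of the 11 members fell in HZ boars (Ha vs. Hb), where 13.0% of the 1441 miRNAs tested fell, and no member rose, where 21.3% of all did. In LC boars (La vs. Lb), 5 of the 11 fell, where 13.4% of 1446 fell, and again no member rose, where 26.8% did. The members called in both breeds were ssc-miR-10a-5p, ssc-miR-615 and miR-615-y, of which the last pair record the same miRNA. In HZ boars ssc-miR-10a-5p and ssc-miR-10a-3p, the arms of 1 hairpin, were both called. The entries are therefore not independent of each other. The median log2 fold change of the members was -1.5 in HZ boars and -1.06 in LC boars, against 0.32 for all miRNAs in each comparison. These medians count each of the linked entries, and also ssc-miR-196b-3p, which had almost no signal. At the study's thresholds (absolute log2 fold change above 1 and unadjusted p under 0.05), 6 members were lower in Hb, where 14.4% of all were, and 5 were lower in Lb, where 5.81% were. Every Hb library lay below every Ha library for 7 members, against 20.7% of all miRNAs tested, and every Lb library lay below every La library for 3, against 14.0%. The testes were sequenced whole, so fewer cells of a type and less of a miRNA per cell cannot be told apart. Beside these falls, all 4 entries of the germ cell list rose in both breeds, and the summed mesenchymal miR-199 and miR-214 entries (12 entries) went from 74848 to 77877 TPM in Ha to 32285 to 43890 in Hb, and from 84690 to 94056 in La to 47472 to 55355 in Lb. The smooth muscle miRNAs miR-143 and miR-145 (9 entries) moved the other way, from 22030 to 36347 TPM in Ha to 58183 to 92500 in Hb. The part of cell composition in the falls was not tested.

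**Figure D2:**
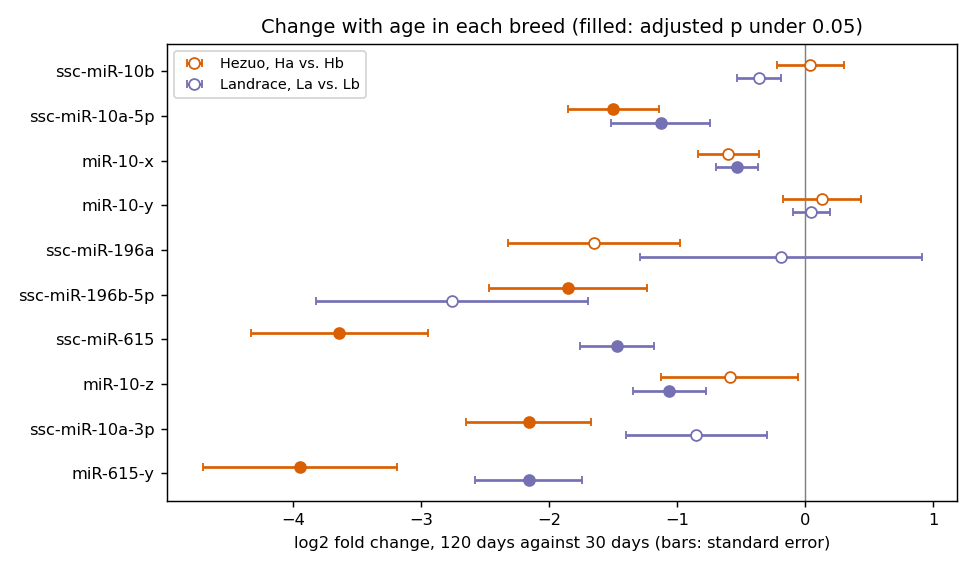
Log2 fold change at 120 days against 30 days for the 10 entries in HZ (orange) and LC boars (purple), with bars of 1 standard error and filled points for adjusted p under 0.05. In HZ boars the miR-615 entries lie farthest to the left, and ssc-miR-10b and miR-10-y lie near 0. In LC boars ssc-miR-10b lies at -0.36 and miR-10-y at 0.05.

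The most abundant member, ssc-miR-10b, the HOXD guide, passed the test of age in neither breed. HZ boars had 46289, 43769 and 49955 TPM at 30 days (Ha) and 45094, 48091 and 34249 TPM at 120 days (Hb). LC boars had 51121, 41460 and 50768 TPM (La) and 36417, 54643 and 34440 TPM (Lb). The groups overlapped in each comparison, with the lowest libraries being Hb replicate 3 and Lb replicates 3 and 1. In Ha vs. Hb the log2 fold change was 0.04 (standard error 0.263, edgeR adjusted p = 0.905), and in La vs. Lb it was -0.36 (0.175, adjusted p = 0.125). Without Hb replicate 2 the change in HZ boars was -0.30 (adjusted p = 0.105), and without Lb replicate 2, the library with the highest level, the change in LC boars was -0.71 and was called (adjusted p = 1.98e-04). Without Lb replicate 3 it was -0.21 and without Lb replicate 1 it was -0.24, neither called.

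Its HOXB relative ssc-miR-10a-5p, with the same seed, fell in both breeds. It was measured at 2185, 2472 and 1397 TPM in Ha and at 810, 745 and 353 TPM in Hb. All Hb libraries lay below all Ha libraries, and the change was -1.5 on the log2 scale (standard error 0.356, edgeR adjusted p = 0.00523). This call was kept under all 14 alternatives (-1.92 to -1.20). In LC boars the values were 1162, 1774 and 1576 TPM in La and 418, 1408 and 466 in Lb. Here the groups overlapped, because Lb replicate 2 lay within the range of La. Its log2 fold change was -1.13 (0.389, adjusted p = 0.0345), and the call was lost in 7 of 15 alternatives, among them DESeq2 (-1.17, adjusted p = 0.149) and the fits without La replicate 2 (-1.0) or La replicate 3 (-1.07). Without Lb replicate 2 it was -2.04.

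The opposite arm of the same hairpin, ssc-miR-10a-3p, was present at a few TPM. Its level was 4.61, 7.51 and 3.15 TPM in Ha and 1.21, 1.09 and 0.772 in Hb, with no overlap, and it fell by 2.16 on the log2 scale (standard error 0.489, edgeR adjusted p = 0.00385), a call that all 14 alternatives kept. In La it was 2.27, 5.12 and 2.43 TPM and in Lb 0.662, 3.88 and 1.69 TPM, which overlapped, with Lb replicate 2 again the highest of its group. The log2 fold change of -0.85 in La vs. Lb was not called (adjusted p = 0.246), but was -1.76 without Lb replicate 2 (adjusted p = 0.0133). It was -0.37 without Lb replicate 1 (adjusted p = 0.554) and -0.39 without La replicate 2 (adjusted p = 0.662).

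Because both guides were counted in the same libraries, their ratio does not depend on how libraries are scaled. There were 21.2, 17.7 and 35.8 counts of ssc-miR-10b per count of ssc-miR-10a-5p in Ha and 55.7, 64.6 and 97.0 in Hb. In La the ratio was 44.0, 23.4 and 32.2, and in Lb it was 87.1, 38.8 and 74.0. Every Hb library had a higher ratio than every Ha library, whereas Lb replicate 2 lay below La replicate 1. Averaged over both breeds, the log2 ratio was higher at 120 days by 1.27 (exact permutation of age within breed, two-sided, p = 0.01, and 0.0375 after adjustment over 5 ratios, where 0.005 is the smallest p possible before adjustment). With each library left out in turn the difference was 1.15 to 1.44 and the adjusted p 0.025 to 0.0625. The tags of these guides differ by 1 base, and any exchange of tags between them was not tested.

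**Figure D3:**
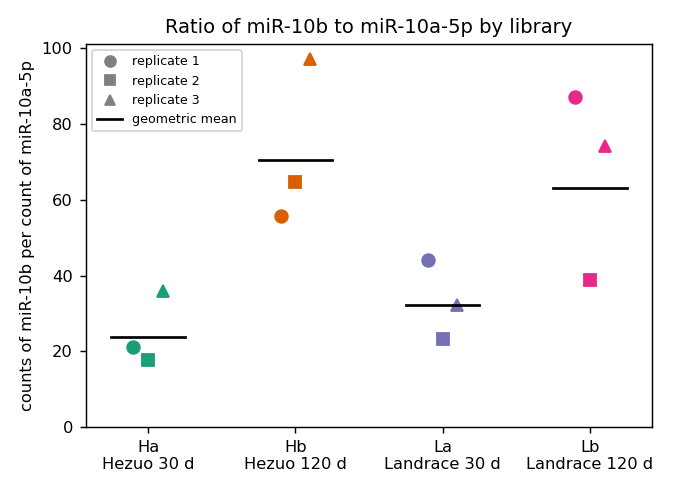
Counts of ssc-miR-10b per count of ssc-miR-10a-5p in each library (marker shape by replicate, black line for the geometric mean). The geometric mean is 23.8 in Ha and 70.4 in Hb, and 32.1 in La and 63.0 in Lb.

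The late-starting variant miR-10-x had log2 fold changes with age of -0.60 in HZ and -0.53 in LC boars. Its level was 903, 804 and 942 TPM in Ha and 614.6, 456 and 536 in Hb, with no overlap, yet the change (standard error 0.237) was not called (edgeR adjusted p = 0.0658). It was called with all 12 libraries in 1 fit (-0.60, adjusted p = 0.0188) and without Hb replicate 2 (-0.67, adjusted p = 0.0108), and was -0.40 without Hb replicate 1 (adjusted p = 0.214). In La the level was 846, 812 and 994 TPM and in Lb 637, 863 and 582, where Lb replicate 2 overlapped La. The fall of 0.53 on the log2 scale in La vs. Lb (0.165, adjusted p = 0.0234) was called, but not without La replicate 2 (-0.58, adjusted p = 0.0552) or La replicate 3 (-0.40, adjusted p = 0.111), without La and Lb replicate 3 (-0.29, adjusted p = 0.231) or with library size alone (-0.32, adjusted p = 0.105). Counts of ssc-miR-10b per count of miR-10-x were 51.3 to 54.4 in Ha, 63.9 to 105.0 in Hb, 51.1 to 60.4 in La and 57.2 to 63.3 in Lb. The log2 ratio was higher at 120 days by 0.36 (exact permutation, p = 0.015, adjusted 0.0375), and the adjusted p was 0.025 to 0.0875 with each library left out. The less frequent miR-10-z fell in La vs. Lb, from 7.07, 6.35 and 7.70 TPM to 3.64, 5.14 and 2.76 (log2 fold change -1.06, edgeR adjusted p = 0.0111). The call was lost with all 12 libraries in 1 fit (-1.11, adjusted p = 0.0786) and without La and Lb replicate 3 (-0.77, adjusted p = 0.106). In HZ boars it went from 4.61, 6.49 and 6.39 TPM to 1.48, 5.45 and 2.57, which overlapped in Hb replicate 2 (-0.59, adjusted p = 0.415), and without that library the change was -1.54 and was called (adjusted p = 0.00565). It was -0.02 without Hb replicate 1 (adjusted p = 0.977).

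The opposite-arm entry miR-10-y passed the test of age in neither breed. Its HZ libraries had 222.9, 195 and 221 TPM (Ha) and 241, 237 and 141.8 TPM (Hb), and its LC libraries 186, 167 and 190 TPM (La) and 198.5, 250 and 188 TPM (Lb). The ages overlapped in both breeds. The change was 0.13 in Ha vs. Hb (log2, standard error 0.305) and 0.05 in La vs. Lb (0.147), neither of which was called (edgeR adjusted p = 0.767 and 0.799). The direction of these small values turned in some alternatives, as given in the closing section. Counts of ssc-miR-10b per count of miR-10-y ranged from 183 to 274 over the 12 libraries, and the difference of the log2 ratio between the ages was -0.25 (exact permutation, p = 0.035, adjusted 0.0583). With each library left out the difference was -0.30 to -0.21 and the adjusted p 0.0333 to 0.117, the lowest without Hb replicate 3. For the HOXB hairpin, the ratio of ssc-miR-10a-5p to ssc-miR-10a-3p was 275 to 683, and the corresponding difference was 0.12 (exact permutation, p = 0.645).

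The miR-615 entries, from within HOXC5, had the largest log2 fold changes with age of all members in HZ boars when all libraries of the comparison were used. Without Hb replicate 2 the change was -3.09 for ssc-miR-615 and -3.46 for miR-615-y, beside -3.15 for ssc-miR-196a and -3.17 for ssc-miR-196b-5p. The level of ssc-miR-615 was 11, 10.4 and 15.2 TPM in Ha, from 119, 102 and 164 counts. In Hb it was 2.69 TPM in replicate 1 (20 counts), at 0 counts in replicate 2, which allows up to 0.327 TPM, and 0.386 TPM in replicate 3 (3 counts). All Hb libraries lay below all Ha libraries, and only Hb replicate 1 stood above the floor of 3 counts. Mean levels were 12.2 ± 2.63 TPM in Ha and 1.03 ± 1.45 TPM in Hb (SD, n = 3 each). It fell by 3.64 on the log2 scale, with a standard error of 0.693 (edgeR adjusted p = 0.00132). In LC boars the level was 7.85, 5.88 and 7.70 TPM in La and 2.52, 3.88 and 2.40 in Lb, again with no overlap, and the change was -1.47 (0.292, adjusted p = 0.00158). These falls were called in all alternatives run, 14 in HZ (-5.61 to -3.09) and 15 in LC boars (-1.82 to -1.26). The -5.61 came without Hb replicate 1. It is set against libraries at or under the floor and is no measure of size.

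The longer variant miR-615-y fell in both breeds as well. It was measured at 4.15, 3.35 and 3.15 TPM in Ha, and in Hb at 0.673 TPM in replicate 1 with 0 counts in the other two. It was at 2.88, 2.18 and 3.11 TPM in La and at 0.463, 1.15 and 0.534 in Lb. Neither breed showed an overlap of the ages. The log2 fold changes were -3.95 in HZ (edgeR adjusted p = 0.00136) and -2.16 in LC boars (adjusted p = 0.00132). Without Hb replicate 1 the HZ value was -7.97, and the range over alternatives was -7.97 to -3.42 in HZ and -2.73 to -1.85 in LC boars, all of them called. The HZ values are set against libraries at 0 counts and are no measure of size. When both entries were summed, the fall was called in both breeds as well.

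The fall of ssc-miR-615 was larger in HZ than in LC boars as a point estimate, with a difference of the age effects of 2.11 on the log2 scale (standard error 0.793). In edgeR's quasi-likelihood test over 12 libraries this interaction was not called (adjusted p = 0.135). No member was called in that test, where 1.38% of 1452 miRNAs were, and ssc-miR-615 was the only member with an unadjusted p under 0.05, where 21.1% of all miRNAs had one. DESeq2 called 1 member, ssc-miR-615 (2.10, adjusted p = 0.0374), and 8.33% of all miRNAs. The call thus depended on the test used, and it also turned on 1 library. In edgeR without Hb replicate 1, in which most of the remaining Hb counts lay, the estimate was 4.20 and was called (adjusted p = 0.00233). That of miR-615-y was called as well (6.12, adjusted p = 0.0146), in a fit that called 11.6% of all. Those fitted values are set against libraries at or under the floor and are no measure of size.

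For the miR-196 entries, from the posterior ends of the HOX clusters, single libraries decided several values. For ssc-miR-196b-5p, from the HOXA cluster by its known gene, the levels were 12.3, 11.5 and 20.4 TPM in Ha and 2.69, 6.43 and 0.772 in Hb. The groups did not overlap, and it fell by 1.85 on the log2 scale (standard error 0.618, edgeR adjusted p = 0.0327). This call was lost in 7 of 14 alternatives, among them DESeq2 (adjusted p = 0.0682) and the fits without Ha replicate 2 (-1.98), Ha replicate 3 (-1.54), Hb replicate 1 (-1.42) or Hb replicate 3 (-1.36), whereas without Hb replicate 2 it was -3.17 and called (adjusted p = 1.01e-06). In LC boars the level was 0.436 and 0.379 TPM in La replicates 1 and 2 (5 and 4 counts) but 14.4 TPM in La replicate 3 (274 counts), and it was 0.728, 1.15 and 0.890 TPM in Lb. The log2 fold change of -2.76 in La vs. Lb was not called (1.06, adjusted p = 0.0564), and without La replicate 3 it was 0.99 (adjusted p = 0.251). It was called lower in Lb in 6 alternatives, among them the fits without La replicate 1 (-3.29), La replicate 2 (-3.28), Lb replicate 1 (-2.54) or Lb replicate 3 (-2.71).

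For ssc-miR-196a the same library stood out. The levels were 8.39, 8.32 and 24.7 TPM in Ha, and 1.75, 7.20 and 1.42 in Hb, which did not overlap. The log2 fold change of -1.65 in Ha vs. Hb (standard error 0.674) was not called (edgeR adjusted p = 0.0725), but was called without Hb replicate 2 (-3.15, adjusted p = 3.75e-06) or Ha replicate 1 (-1.81, adjusted p = 0.0295). Without Ha replicate 3 it was -0.93 (adjusted p = 0.332) and without Hb replicate 1 it was -1.09 (adjusted p = 0.173). In La the levels were 0.698 and 0.19 TPM in replicates 1 and 2 (8 and 2 counts) and 13.2 TPM in replicate 3 (250 counts). In Lb they were 0.596 and 2.20 TPM in replicates 1 and 2 and 12.3 TPM in replicate 3 (138 counts). The change in La vs. Lb was -0.19 (standard error 1.10, adjusted p = 0.913). It was 3.31 without La replicate 3 (called, adjusted p = 0.0376), -2.06 without Lb replicate 3 (called, adjusted p = 0.00454) and 1.41 without both (adjusted p = 0.173).

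**Figure D4:**
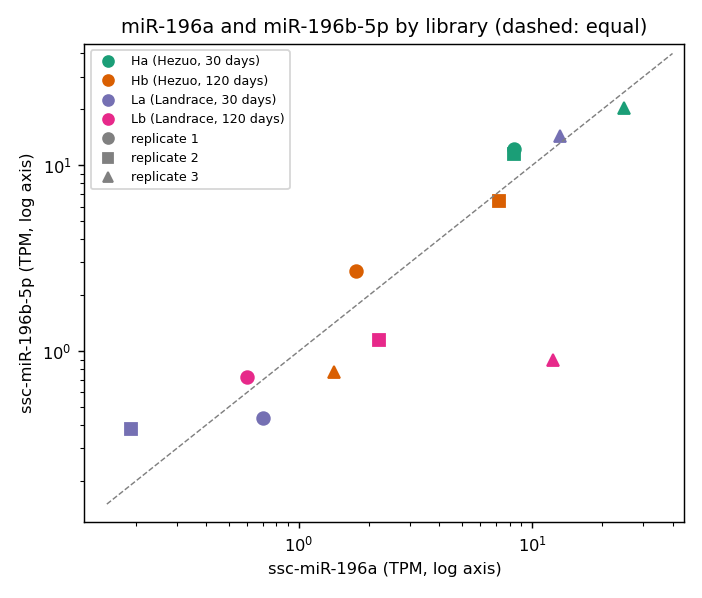
Level of ssc-miR-196b-5p against ssc-miR-196a (TPM, both axes log) in the 12 libraries, coloured by group with the marker shape giving the replicate and a dashed line of equal levels. La replicate 3 lies beside the Ha libraries, and Lb replicate 3 is far below the line, with 12.3 TPM of ssc-miR-196a and 0.890 of ssc-miR-196b-5p.

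The miR-196 sequences, which differ by 1 base, were mostly present at like levels in a library. The counts of ssc-miR-196b-5p per count of ssc-miR-196a were 0.824 to 1.46 in Ha, 0.545 to 1.54 in Hb and 0.625 to 2.0 in La. In Lb they were 1.22 and 0.524 in replicates 1 and 2 and 0.0725 in replicate 3, so that the high level in Lb replicate 3 was of ssc-miR-196a alone, whereas that in La replicate 3 was of both. Lists of miRNAs known from other cell types were summed in the same libraries, with miR-1, miR-133 and miR-206 for striated muscle, miR-141, miR-200, miR-203, miR-205 and miR-429 for epithelium, and miR-142, miR-150, miR-155 and miR-223 for leukocytes. They were at 204 TPM for striated muscle in La replicate 3 against 109 and 147 in La replicates 1 and 2, at 328 against 388 and 301 for epithelium, at 1352 against 1481 and 1382 for leukocytes and at 26749 against 20687 and 24067 for smooth muscle. In Lb replicate 3 the sums were 846 TPM against 739 and 701 for striated muscle, 672 against 741 and 932 for epithelium, 1202 against 776 and 1102 for leukocytes and 63110 against 65214 and 55596 for smooth muscle. Their part in the miR-196 values was not tested.

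Between the breeds at 30 days (Ha vs. La), edgeR called none of the 11 members, where 11.3% of 1278 miRNAs were called. At an unadjusted p under 0.05 there was 1 member, ssc-miR-615, against 24.7% of all miRNAs. DESeq2 likewise called 1 member, against 11% of all, and gave no adjusted p for 3 members. The level of ssc-miR-615 was lower in every La library than in every Ha library, with a change of -0.68 on the log2 scale (standard error 0.212, adjusted p = 0.0546). It was called in 5 of 14 alternatives, among them the fit without Ha replicate 2 (-0.79, adjusted p = 0.0462). The members with every La library below every Ha library were 3, against 16.7% of all, namely ssc-miR-615, miR-615-y and miR-10-y. The change was 0.12 for ssc-miR-10b (0.0958, adjusted p = 0.495) and -0.33 for ssc-miR-10a-5p (0.191, adjusted p = 0.315). Without Ha replicate 3, the lowest Ha library in ssc-miR-10a-5p, the latter was -0.53 and was called (adjusted p = 5.79e-06), and without Ha replicate 2 or La replicate 1 it was -0.16 and not called. In miR-196, 2 of the 3 La libraries lay below every Ha library. The log2 fold change was -1.36 for ssc-miR-196a (adjusted p = 0.318) and -1.33 for ssc-miR-196b-5p (adjusted p = 0.309), neither called, and -4.82 and -5.05 without La replicate 3, both called (adjusted p = 7.14e-05 and 7.76e-07). The fit without Ha replicate 3 also called ssc-miR-196b-5p (-0.99, adjusted p = 2.13e-04) but not ssc-miR-196a (-0.61, adjusted p = 0.0702). Without La replicate 1 or La replicate 2 the values were -0.88 and -0.86 for ssc-miR-196a and -0.82 and -0.84 for ssc-miR-196b-5p, none called.

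At 120 days (Hb vs. Lb), edgeR again called no member, where 3.25% of 1444 were called (1.11% higher and 2.15% lower in Lb). By TPM, without TMM scaling, all 11 members overlapped between the groups, where 18.6% of all miRNAs were higher without overlap in Lb and 7.96% lower. With an unadjusted p under 0.05 there was 1 member, ssc-miR-196b-5p, against 21.3% of all miRNAs, and it also passed the study's thresholds, as did 8.38% of all miRNAs in this direction. Its change was -2.41 on the log2 scale (standard error 0.757, adjusted p = 0.0881), which was -0.89 without Hb replicate 2. It was called by DESeq2 (-2.52, adjusted p = 0.0287), which called 8.31% of all, and without Hb replicate 1 (-2.75, adjusted p = 0.0436), where 10.5% of all were called. The edgeR fit with the replicate number as a block called it too (-1.86, adjusted p = 0.0249), where 9.56% of all were called. The level of ssc-miR-615 was higher in Lb by 1.45 (0.749, adjusted p = 0.281) and was called only without Hb replicate 1 (3.48, adjusted p = 0.0178) among the fits with a library left out, when both remaining Hb libraries were at or under the floor. The block fit also called ssc-miR-615 (1.82, adjusted p = 0.0457).

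The sequence relatives of miR-10, the miR-99 and miR-100 entries, gave a comparison list of 10 entries. With age in HZ boars, 1 of them rose and none fell, with a median log2 fold change of 0.29, and in LC boars 3 rose and 4 fell, with a median of -0.06. Between the breeds, 1 was called higher in La at 30 days and none at 120 days. The gonad supporting cell list (miR-202) had 3 of 5 entries lower in Hb, with a median log2 fold change of -0.86 and summed levels of 18675 to 21867 TPM in Ha and 9608 to 17266 TPM in Hb, which did not overlap. In LC boars 1 of its 5 entries fell, with a median of -0.02, while the sums were 15272 to 17278 TPM in La and 17966 to 24405 TPM in Lb. Among the other lists, 4 of 12 mesenchymal entries fell in HZ boars and 10 of 12 in LC boars, and no entry of that list rose with age. Of the leukocyte list, 3 of 12 fell in HZ boars and 2 of 12 in LC boars, and of the endothelial miR-126 list 1 of 4 rose in Ha vs. Hb and 3 of 4 fell in La vs. Lb. The erythroid list (miR-144, miR-451 and miR-486) had 1 of 10 lower in Hb, and 1 higher and 6 lower in Lb. The striated muscle list rose in 5 and 8 of 11 entries, the epithelial list in 3 and 8 of 15, and the smooth muscle list in 6 and 8 of 9, in HZ and LC boars in that order, with no entry of these 3 lists lower.

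The miRNAs with the most similar pattern were sought among 433 other miRNAs whose mean reached 10 TPM, by the root mean square difference of log2(TPM + 1) after centring each miRNA on its mean over the 12 libraries. These differences are on a log2 scale and are descriptions of the same libraries. For ssc-miR-615 the nearest were ssc-miR-149 (0.316), miR-23-z (0.341) and miR-484-z (0.355), against a spread of 1.19 of ssc-miR-615 around its own mean. The level of ssc-miR-149 averaged 808 TPM (Ha), 118 TPM (Hb), 602 TPM (La) and 267 TPM (Lb). For ssc-miR-10a-5p they were ssc-miR-155-5p (0.473), ssc-miR-139-3p (0.557) and ssc-miR-199a-5p (0.601), against a spread of 0.908, and ssc-miR-155-5p was also nearest to ssc-miR-10a-3p (0.330, against 0.724), followed by ssc-miR-146b and ssc-let-7f-5p. Near ssc-miR-10b were ssc-miR-148a-3p (0.187), ssc-miR-191 and miR-590-y, which is little under its own spread of 0.220. None of the 433 candidates came close to the miR-196 entries, since the nearest to ssc-miR-196a was ssc-miR-378 (1.24, against a spread of 1.40), with ssc-miR-146b and ssc-miR-378b-3p next, and the nearest to ssc-miR-196b-5p was ssc-miR-2483 (1.18, against 1.45), with ssc-miR-146b and ssc-miR-26b-3p next. Other members, and miRNAs as scarce as the miR-196 entries, were not among the candidates. For ssc-miR-196b-3p, at the floor, the search returned miR-148-y, ssc-miR-27a and ssc-miR-126-5p, whose differences (0.133 to 0.158) exceed its own spread of 0.0971.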

How the data were processed

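Small RNA of 12 testis libraries was sequenced, and read filtering by the authors used fastp. They removed tags of other non-coding RNAs and of exons, introns and repeats of Sscrofa11.1, and matched the rest to mature miRNAs of miRBase with bowtie. The authors deposited raw tag counts of 1452 miRNAs in each library, and TPM, the same counts per 1000000 of a library total (7423905 to 18967505 as read from the values). A table of predicted hairpins was not used.

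Comparisons were fitted with edgeR 4.0.16 in R 4.3.3 (glmQLFit and glmQLFTest, TMM) on the counts of the 6 libraries compared, over all miRNAs with at least 1 count, with Benjamini-Hochberg adjustment, and the interaction over all 12. The study's text names edgeR but not its test. Standard errors are the log2 fold change over the square root of the F statistic. Ratios of counts were tested by exact permutation of age within breed. The fit was also run on simulated counts with the same dispersion for every miRNA. That run does not bear on members whose values hung on single libraries. Counting floors of 3 counts cover counting error only, since tags carry no molecular identifiers.

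Members matched miR-10, miR-196 or miR-615 by name. Those reaching a mean of 1 TPM in any group are given by library, and the 3 miRNAs most like each pig-named member are named. Other names were chosen after seeing the values. The members, lists and tests were chosen with earlier results of these data known. Alternatives were RLE, library size alone, DESeq2 1.42.0, filterByExpr, robust estimation, 1 fit of all libraries, a replicate block, merging of near-identical entries, counts per 1000000 listed counts, and each library left out. The ratio tests, leaving out libraries for them, and leaving out La and Lb replicate 3 together were added after seeing the data.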

Additional observations from a re-analysis of the deposited data

How the results depend on the processing

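There were 5 members called with age in each breed (Ha vs. Hb, La vs. Lb) and 0 called in Ha vs. La, Hb vs. Lb and the interaction. With each library left out these counts ranged from 4 to 8, 2 to 7, 0 to 3, 0 to 2 and 0 to 2, in that order (the 8 without Hb replicate 2, the 2 in La vs. Lb without both La replicate 3 and Lb replicate 3, the 3 without Ha replicate 3, both 2s at the end without Hb replicate 1). Over all miRNAs the share called moved too, from 34.3% to 39.5% without Hb replicate 2 in Ha vs. Hb, from 40.2% to 29.9% without La and Lb replicate 3 in La vs. Lb, from 11.3% to 20.5% without Ha replicate 3 in Ha vs. La, and without Hb replicate 1 from 3.25% to 10.5% in Hb vs. Lb and from 1.38% to 11.6% in the interaction. Other counts beyond 1.5 times were 3 in La vs. Lb with near-identical entries merged (39% of all called), where miR-615-y and ssc-miR-615 become 1 entry and ssc-miR-10a-5p was at an adjusted p of 0.0594, 1 in Ha vs. La with library size alone, with DESeq2 and with robust estimation (11.4, 11 and 10.4% of all called), and 1 in Hb vs. Lb and in the interaction with DESeq2 (8.31 and 8.33%). With the replicate number as a block, the counts were 5, 8, 3, 2 and 0, where 26.6, 38.3, 11.4, 9.56 and 1.38% of all miRNAs were called. In La vs. Lb the block added ssc-miR-10b (-0.40), ssc-miR-10a-3p (-0.99) and ssc-miR-196b-5p (-1.44). In Ha vs. La it called ssc-miR-196a, ssc-miR-196b-5p and ssc-miR-615, and in Hb vs. Lb ssc-miR-196b-5p and ssc-miR-615. No pairing by replicate number was seen: deviations of same-numbered libraries correlated between -0.213 and 0.241, and 12 of 36 best matches were with the own number. With 3 libraries per group a weak pairing could go unseen.

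Library size alone shifted the median log2 fold change of all miRNAs by 0.214 in La vs. Lb, 0.252 in Hb vs. Lb and 0.321 in the interaction. Signs turned as follows. In Ha vs. Hb, ssc-miR-10b was -0.13 with library size alone, -0.02 with the block and -0.30 to 0.31 with each library left out (lowest without Hb replicate 2), miR-10-y in Ha vs. Hb was -0.03 with library size alone and -0.24 (without Hb replicate 2) to 0.36, and in La vs. Lb it was -0.01 with all libraries in 1 fit and -0.18 (without Lb replicate 2) to 0.20. In La vs. Lb, ssc-miR-196a was 0.05 with library size alone, 0.35 with the block, 0.37 without Lb replicate 1, 0.09 without Lb replicate 2, 3.31 without La replicate 3, 1.41 without La and Lb replicate 3, and -2.06 without Lb replicate 3. With libraries left out ssc-miR-196b-5p was -3.29 to 1.0, positive (0.99 and 1.0) in the fits without La replicate 3. The log2 ratio of ssc-miR-10a-5p to ssc-miR-10a-3p was -0.05 (without Lb replicate 1) to 0.25. The cause of these turns was not tested. Counts were low for ssc-miR-615 in Hb replicates 2 and 3 (0 and 3 counts) and for the miR-196 guides in La replicates 1 and 2 (2 to 8 counts). The part of sequencing depth in these values was not tested.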

Other observations

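Of the 1452 listed miRNAs, 2 had at least 20 counts in La replicate 3 and a TPM at least 10-fold that of both other La libraries, and these were ssc-miR-196a and ssc-miR-196b-5p. The same criterion, set after the values were seen, was met by 2 miRNAs in Hb replicate 1 (miR-3085-y and ssc-miR-129a-3p), by 2 in Hb replicate 2 (miR-215-x and miR-3116-z), by 1 in Lb replicate 3 (an entry the authors predicted) and by none in the other 8 libraries. The high ssc-miR-196a in Lb replicate 3 did not reach it, at 12.3 TPM against 2.20 in Lb replicate 2. In La replicate 3 ssc-miR-615 was at 7.70 TPM against 7.85 and 5.88 in La replicates 1 and 2, and ssc-miR-10a-5p was at 1576 against 1162 and 1774.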
